A study of Mus musculus with 8 samples.

Results

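Major histocompatibility complex (MHC) class II presentation was followed through 7 genes in mouse hepatic stellate cells: H2-Aa, H2-Ab1, H2-Eb1, H2-DMa, Cd74, Ciita and Cd86. The genes were taken by symbol from the platform's probe table, and each was read from a probe set that carries only that symbol, and from the brightest of these on average where there were several. This gave a value for 6 of the 7 genes, out of 22180 genes with such a probe set. Each of the 6 had 1 such probe set. The only probe set for Cd74, which encodes the invariant chain, carries 2 symbols, so Cd74 has no value here.

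RNA was measured on 8 Affymetrix arrays, 2 for each of 4 groups of primary stellate cells from BALB/c mice, an inbred strain. The cultured cells were quiescent cells kept on plastic dishes for 10 days. The cells activated in vivo came, without seeding, from fibrotic livers of mice given carbon tetrachloride (CCl4), a hepatotoxin, for 4 weeks or for 2 weeks. The quiescent cells came from healthy livers at 0 hours, without seeding. The labels give neither the animals' age or sex nor any genetic change. All 8 samples carry a treatment protocol that names 2.5 mM valproic acid after seeding, although 3 of the 4 groups were never seeded, and these sources do not settle if it was given to the cultured cells. Nothing in the labels says whether both arrays of a group stem from different mice or dishes. The p-values therefore reflect the spread among these 8 samples alone, and that spread may be technical.

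MHC class II molecules are pairs of an α and a β chain that carry peptides from endocytosed proteins to the cell surface, where CD4+ T cells read them. The invariant chain fills the groove of new molecules, cathepsins trim it to a short peptide, and H2-DM then exchanges that peptide for others. Transcription of these genes depends on Ciita, a coactivator that is recruited by factors bound to the X and Y boxes of their promoters and that interferon-γ can induce. Dendritic cells, B cells and macrophages are the classical carriers of class II molecules, and stellate cells have been described as able to express them too.

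The X and Y boxes can be read in RefSeq promoter windows (assembly GRCm38.p6, from the C57BL/6J strain), which run from 250 bases before to 50 bases after an annotated start. These windows are shown because the X and Y boxes, through which class II genes are known to be switched on together, lie in promoters. In the lines that follow, capitals mark ATTGG or the longer TGATTGG (cores of the Y box, the first lying within the second) and AGCAAC (core of the X box), searched on both strands, so CCAAT in capitals is ATTGG on the opposite strand. A window was found for 3 of the 7 genes, H2-Aa, H2-Eb1 and H2-DMa, the last with 2 annotated starts. H2-DMb2, which encodes a β chain of H2-DM, is shown beside them. All 5 windows lie on chromosome 17, at chr17:34287774-34288073 on the minus strand for H2-Aa and on the plus strand at chr17:34305617-34305916 for H2-Eb1, chr17:34122582-34122881 and chr17:34125268-34125567 for H2-DMa and chr17:34144999-34145298 for H2-DMb2.
H2-Aa: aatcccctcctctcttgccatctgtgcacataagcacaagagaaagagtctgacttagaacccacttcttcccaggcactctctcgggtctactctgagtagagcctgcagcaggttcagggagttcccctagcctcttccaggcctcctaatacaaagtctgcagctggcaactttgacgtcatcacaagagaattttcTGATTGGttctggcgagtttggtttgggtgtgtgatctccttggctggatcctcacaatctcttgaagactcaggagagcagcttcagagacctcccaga
H2-Eb1: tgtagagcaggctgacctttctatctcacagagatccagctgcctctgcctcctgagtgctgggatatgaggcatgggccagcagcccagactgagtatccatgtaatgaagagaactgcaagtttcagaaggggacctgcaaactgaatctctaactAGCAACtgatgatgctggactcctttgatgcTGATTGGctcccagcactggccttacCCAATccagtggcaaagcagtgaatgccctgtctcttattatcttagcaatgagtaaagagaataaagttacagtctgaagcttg
H2-DMa window 1: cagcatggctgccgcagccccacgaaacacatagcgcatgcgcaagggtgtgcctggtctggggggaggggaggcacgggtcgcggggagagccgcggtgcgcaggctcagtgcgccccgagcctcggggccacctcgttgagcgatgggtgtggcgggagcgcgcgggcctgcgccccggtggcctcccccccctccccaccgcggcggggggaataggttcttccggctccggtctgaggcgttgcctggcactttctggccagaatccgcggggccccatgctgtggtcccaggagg
H2-DMa window 2: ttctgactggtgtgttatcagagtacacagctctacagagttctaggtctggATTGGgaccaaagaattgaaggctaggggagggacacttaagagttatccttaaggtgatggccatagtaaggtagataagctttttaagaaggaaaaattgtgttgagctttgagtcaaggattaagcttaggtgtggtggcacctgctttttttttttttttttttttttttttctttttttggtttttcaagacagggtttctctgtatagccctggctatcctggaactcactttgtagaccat
H2-DMb2: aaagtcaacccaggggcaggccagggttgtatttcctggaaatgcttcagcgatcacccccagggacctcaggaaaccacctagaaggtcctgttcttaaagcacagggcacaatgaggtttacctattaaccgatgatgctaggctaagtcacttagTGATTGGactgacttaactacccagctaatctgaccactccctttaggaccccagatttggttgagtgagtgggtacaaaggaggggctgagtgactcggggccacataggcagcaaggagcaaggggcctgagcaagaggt

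The longer Y box core begins 50 bases before the start of H2-Aa, 61 bases before that of H2-Eb1 and 92 bases before that of H2-DMb2. Neither H2-DMa window holds it. Only windows at annotated starts were searched, so this does not show that H2-DMa has no Y box elsewhere. Among all 32851 mouse windows of this length, 7.82% hold TGATTGG, 37.4% hold ATTGG and 14.8% hold AGCAAC. Of 8 class II genes with a window (H2-Aa, H2-Eb1, H2-Eb2, H2-DMa, H2-DMb1, H2-DMb2, H2-Oa and H2-Ob), 7 hold the longer Y box core and 4 hold the X box core. Only the exact letters AGCAAC were searched, so this does not show that the other windows have no X box. In H2-Eb1, H2-Eb2, H2-Oa and H2-Ob the X box core precedes the longer Y box core with 25, 25, 26 and 23 bases between them. Such an arrangement, with 20 to 30 bases between, was found in 12 windows of 11 genes, 0.0365% of all windows, and the allowed distance was set after these windows had been read. TTCNNNGAA, a motif that STAT factors bind, was in the H2-DMb2 window and in none of the other class II windows, against 8.3% of all windows. These matches are letters in a C57BL/6J sequence, and the BALB/c sequence was not used here.

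**Figure D1:**
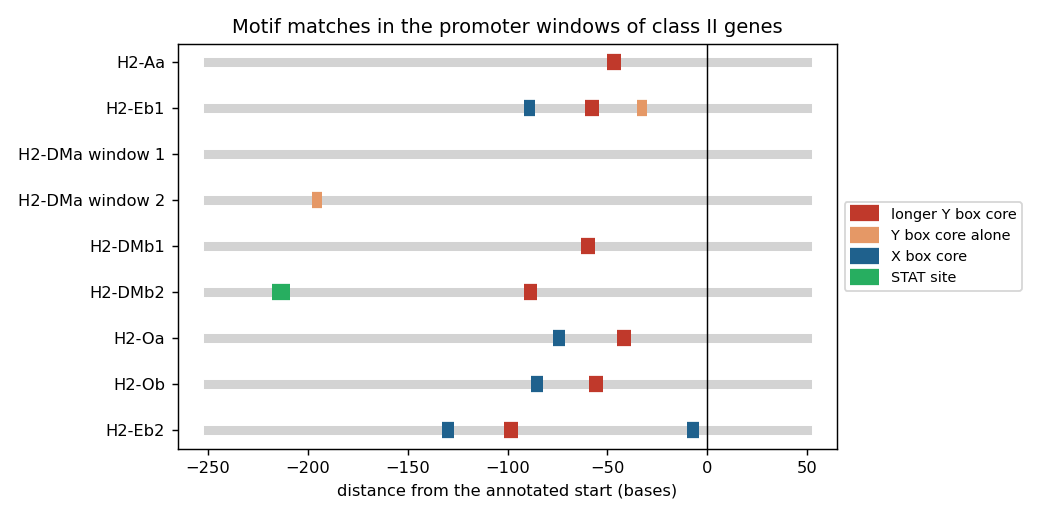
Motif matches in the RefSeq promoter windows of 8 class II genes, H2-DMa with 2 windows, drawn by distance in bases from the annotated start (vertical line). The longer Y box core stands in the windows of 7 of the 8 genes, from 45 to 102 bases before the start, and in neither H2-DMa window.

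The deposited values are log2 RMA levels, in which a difference of 1 is a doubling, and a level is comparable between arrays but not between probe sets. Array medians ran from 4.63 to 4.72. As a guide to background chosen after the data were examined, 95% of 1394 olfactory and vomeronasal receptor genes had means under 4.69. Lrat, a retinol-esterifying enzyme listed among the stellate cell markers, was at 7.21 and 5.74 in culture. It was at 11.04 and 10.97 after 4 weeks of CCl4, 10.95 and 11.11 after 2 weeks and 10.95 and 11.29 in quiescent cells. The mean of 15 stellate cell markers was 7.73 and 7.59 in culture and between 9.94 and 10.20 in the other groups. Of the 15, 2 were called higher and 11 lower in culture than in quiescent cells, beside 12.9% and 10.3% of all genes. The 2 higher ones mark activated cells. Acta2, smooth muscle actin, was at 12.71 and 12.69 in culture, 11.70 and 12.18 at 4 weeks, 11.95 and 11.92 at 2 weeks and 6.78 and 7.24 in quiescent cells. Col1a1, a collagen chain, was at 9.70 and 9.72 in culture, 10.54 and 10.34 at 4 weeks, 10.64 and 11.19 at 2 weeks and 7.33 and 8.14 in quiescent cells. Both genes were called higher than in quiescent cells at both CCl4 times too. The mean of 13 hepatocyte markers was 4.73 and 4.81 in culture, 7.16 and 6.93 at 4 weeks, 7.69 and 8.25 at 2 weeks and 9.91 and 8.87 in quiescent cells, with the cultured arrays lowest. In bulk RNA such as this, fewer cells of a type and less RNA per cell cannot be told apart. Changes were tested with limma in a single fit of all 8 arrays, and a gene was called at a Benjamini-Hochberg adjusted p under 0.05 over the 22180 genes. Changes are log2 fold changes ± SE with 2 arrays per group.

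The 3 measured chains of the surface molecules were lowest in culture and highest after 2 weeks of CCl4. H2-Aa, the α chain of I-A, was at 5.22 and 4.73 in culture, 5.59 and 5.77 at 4 weeks, 6.20 and 5.90 at 2 weeks and 5.57 and 5.65 in quiescent cells. H2-Ab1, its β chain, was at 6.63 and 6.34 in culture, 7.16 and 7.36 at 4 weeks, 7.64 and 7.91 at 2 weeks and 6.79 and 7.23 in quiescent cells. H2-Eb1, the β chain of I-E, was at 5.79 and 5.31 in culture, 5.98 and 6.38 at 4 weeks, 6.45 and 6.78 at 2 weeks and 5.89 and 6.14 in quiescent cells. In all 3 genes both cultured arrays lay below the other 6 and both 2-week arrays above the other 6, a pattern that 0.807% of all 22180 genes had, while the 4-week and quiescent arrays overlapped. The order of the group means was the same in each: 2 weeks, 4 weeks, quiescent, culture.

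Against 2-week CCl4, culture had lower levels of all 3 chains. The log2 fold change was -1.29 ± 0.20 (SE, 2 arrays per group, adjusted p = 0.00208, limma) for H2-Ab1, a 2.45-fold lower level. It was -1.08 ± 0.19 (adjusted p = 0.00468) for H2-Aa and -1.06 ± 0.22 (adjusted p = 0.00966) for H2-Eb1. Between neighbours in the order, the culture-to-quiescent step passed the threshold for H2-Aa at -0.64 ± 0.19 (adjusted p = 0.042). The same step was -0.53 ± 0.20 (adjusted p = 0.0912) for H2-Ab1 and -0.46 ± 0.22 (adjusted p = 0.181) for H2-Eb1. No other step between neighbours passed. The H2-Aa difference from quiescent cells lost its call without quiescent array 1 (adjusted p = 0.0903), quiescent array 2 (0.127), cultured array 2 (0.268) or either 4-week array (0.065 each), and H2-Ab1 gained one without quiescent array 1 (0.0368). The H2-Eb1 difference from 2 weeks lost its call without cultured array 2 (0.0769) or 2-week array 2 (0.0793).

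Against 4-week CCl4, culture was lower for H2-Ab1, at a log2 fold change of -0.77 ± 0.20 (adjusted p = 0.0254), and for H2-Aa, at -0.71 ± 0.19 (adjusted p = 0.0341). H2-Eb1 differed by -0.63 ± 0.22 (adjusted p = 0.0896). Both calls rested on single arrays: H2-Aa missed the threshold without cultured array 2 (0.22), 4-week array 1 (0.098) or 4-week array 2 (0.188), and H2-Ab1 without the same arrays (0.165, 0.0803 and 0.156).

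No chain passed the test at 2 weeks against quiescent cells. H2-Ab1 differed by 0.77 (95% confidence interval 0.32 to 1.21, adjusted p = 0.0646), H2-Eb1 by 0.60 (0.10 to 1.10, adjusted p = 0.197) and H2-Aa by 0.44 (0.01 to 0.88, adjusted p = 0.289). Without quiescent array 2 the H2-Ab1 value was 0.99 with an adjusted p of 0.0259. At 4 weeks the differences from quiescent cells were 0.25 for H2-Ab1 (-0.20 to 0.69), 0.16 for H2-Eb1 (-0.33 to 0.66) and 0.07 for H2-Aa (-0.36 to 0.51), with adjusted p-values of 0.574, 0.782 and 0.901. Between the CCl4 times, 4 weeks minus 2 weeks was -0.52 for H2-Ab1, -0.43 for H2-Eb1 and -0.37 for H2-Aa, and none passed (adjusted p = 0.531, 0.7 and 0.716).

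**Figure D2:**
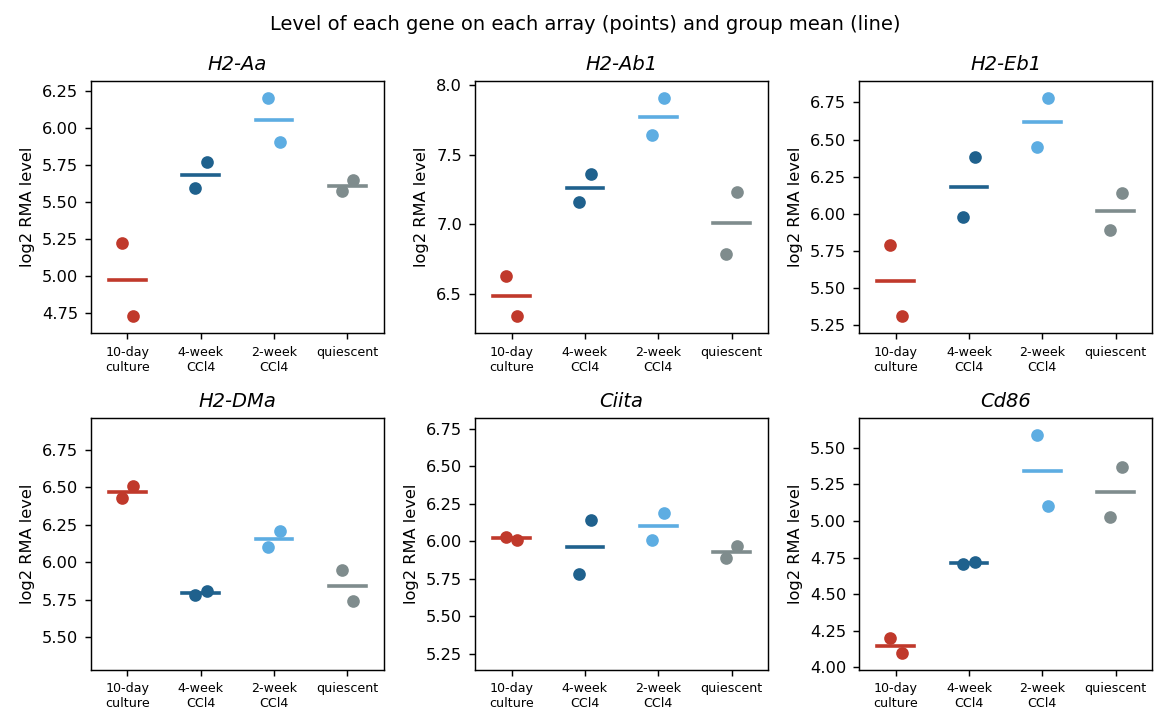
Log2 RMA level of the 6 measured genes on each array (points) with the group mean (line), 2 arrays per group. Both cultured arrays are lowest for H2-Aa, H2-Ab1, H2-Eb1 and Cd86 and highest for H2-DMa, and Ciita spans 0.41 log2 units over all arrays.

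H2-DMa, the α chain of the peptide-exchange factor H2-DM, went the other way. It was at 6.43 and 6.51 in culture, 5.78 and 5.81 at 4 weeks, 6.10 and 6.21 at 2 weeks and 5.95 and 5.74 in quiescent cells. Both cultured arrays were above the other 6, as they were for 17.7% of all genes, and the 4-week and quiescent arrays overlapped. Culture was higher than 4-week CCl4 by 0.67 ± 0.14 (1.59-fold, adjusted p = 0.0102) and higher than quiescent cells by 0.63 ± 0.14 (1.54-fold, adjusted p = 0.0106). The difference from 2 weeks was 0.32 ± 0.14 (adjusted p = 0.172). No step between neighbours in the order culture, 2 weeks, quiescent, 4 weeks passed the test. The difference from quiescent cells lost its call without quiescent array 2 (0.056) or cultured array 2 (0.068), and that from 4 weeks without cultured array 2 (0.0684), 4-week array 1 (0.0724) or 4-week array 2 (0.0558).

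Ciita, the coactivator of class II transcription, was at 6.03 and 6.01 in culture, 5.78 and 6.14 at 4 weeks, 6.01 and 6.19 at 2 weeks and 5.89 and 5.97 in quiescent cells. The 4-week arrays overlapped with every other group. The 6 differences lay between -0.14 and 0.17, with adjusted p-values from 0.689 to 0.957. For culture against quiescent cells the 95% confidence interval was -0.27 to 0.45, and for 2-week CCl4 against quiescent cells it was -0.19 to 0.53. All 8 arrays lay above the background guide. That guide was set on other probe sets, so this alone does not show that Ciita was expressed.

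Cd86, the ligand of CD28 that gives T cells a second signal, was at 4.20 and 4.10 in culture, 4.71 and 4.72 at 4 weeks, 5.59 and 5.10 at 2 weeks and 5.03 and 5.37 in quiescent cells. Cultured arrays were lowest, as for 13.5% of all genes, 4-week arrays came next and lay just above the guide of 4.69, and the 2-week and quiescent arrays overlapped. Culture was lower than 2-week CCl4, at -1.19 ± 0.19 (adjusted p = 0.00275) and lower than quiescent cells, at -1.05 ± 0.19 (adjusted p = 0.00394). Both calls held with any 1 array left out. Both cultured arrays were under the guide, where a level cannot be told from background. With culture set at the guide, the group mean of Cd86 was 1.57-fold higher at 2 weeks and 1.42-fold higher in quiescent cells. The guide comes from other probe sets, so these are not strict minima. Against 4 weeks, culture differed by -0.56 ± 0.19 (adjusted p = 0.0829), 4 weeks differed from 2 weeks by -0.63 ± 0.19 (adjusted p = 0.371) and from quiescent cells by -0.48 ± 0.19 (adjusted p = 0.188).

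Set against all genes, the calls were as follows. In culture against quiescent cells 3 of the 6 genes were called, 1 higher and 2 lower, where 23.2% of all genes were called (12.9% higher, 10.3% lower). Without quiescent array 2 or cultured array 2 the count was 1. In culture against 4-week CCl4 the count was again 3, 1 higher and 2 lower, with 17.2% of all genes called (10.2% higher, 7.05% lower). Without cultured array 2 or either 4-week array the count was 0. In culture against 2-week CCl4, 4 were lower and none was higher, with 18.4% of all genes called (10.7% higher, 7.74% lower). The median change of the 6 genes was -0.50, -0.59 and -1.07 in these comparisons, against 0.01, 0.01 and 0.00 over all genes. By limma none of the 6 was called at 4 weeks against quiescent cells, where 8.71% of all genes were called (4.04% higher, 4.67% lower). None was called at 2 weeks against quiescent cells, with 4.77% of all genes called (2.34% higher, 2.43% lower), or at 4 against 2 weeks, with 0.0857% called (0.0271% higher, 0.0586% lower). At an unadjusted p under 0.05 the comparisons of 4 weeks with quiescent cells, 2 weeks with quiescent cells and 4 with 2 weeks had 1, 3 and 3 of the 6, and 20.6%, 16.9% and 8.16% of all genes. These comparisons share arrays, so their counts are not separate evidence.

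**Figure D3:**
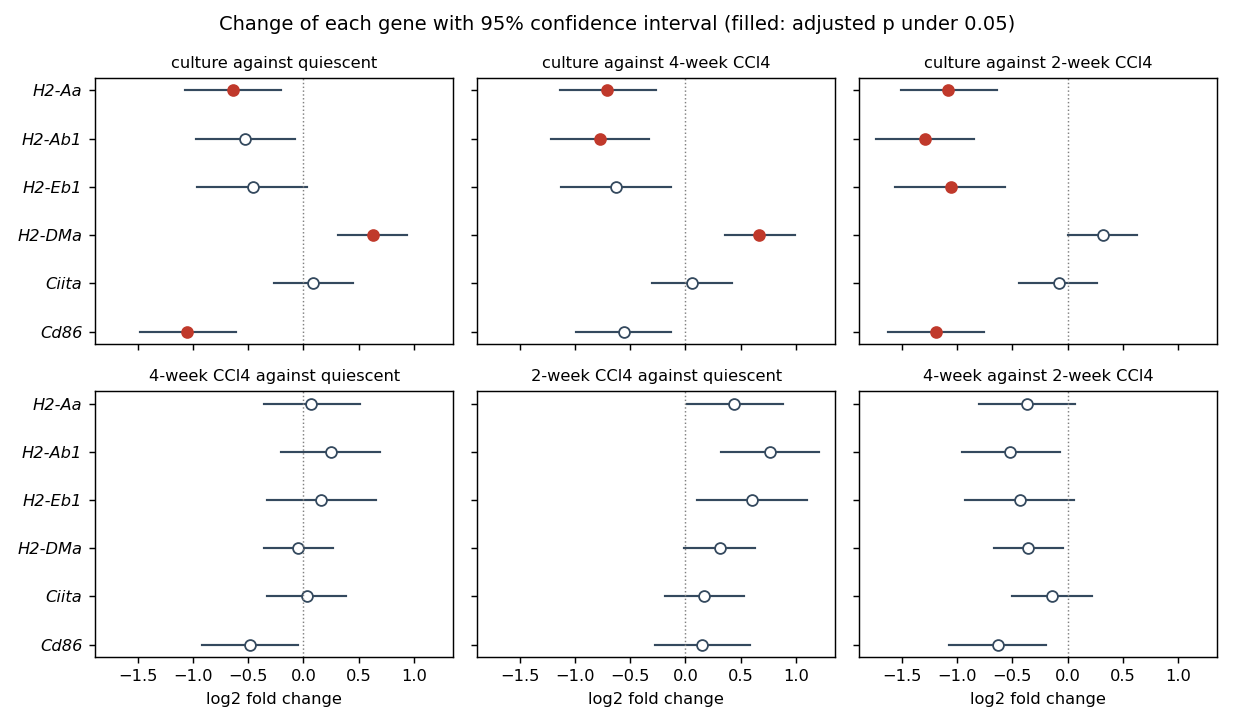
Log2 fold change (point) with its 95% confidence interval (line) for the 6 genes in each comparison, filled where the adjusted p was under 0.05. Culture minus 2-week CCl4 holds the 4 lower calls, from -1.29 for H2-Ab1 to -1.06 for H2-Eb1, and the lower row of panels holds no call.

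Over the 8 arrays the levels of H2-Aa, H2-Ab1 and H2-Eb1 had Pearson's r of 0.91, 0.90 and 0.97 for the 3 pairs. H2-DMa had r of -0.56, -0.43 and -0.40 with the 3 chains, Ciita had 0.19, 0.41 and 0.50 and Cd86 had 0.87, 0.75 and 0.71. These describe 8 arrays in 4 groups and carry no test.

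Of 18 other class II pathway genes listed, 15 had a probe set of their own. In culture 2 were higher and 3 lower than in quiescent cells, 1 higher and 4 lower than at 4 weeks and 1 higher and 5 lower than at 2 weeks, with medians of -0.19, -0.08 and -0.09. Of all genes, 12.9% were higher and 10.3% lower in the first, 10.2% and 7.05% in the second, 10.7% and 7.74% in the third. The higher counts were near or under these shares. Against quiescent cells the higher count was 1 without quiescent array 1, either cultured array or either 4-week array. Against 4 weeks the lower count was 2 without cultured array 2 or 4-week array 2, and the higher count 2 without either quiescent array. Among the CCl4 and quiescent groups 1 of the 15 was called, Ctss, higher at 2 weeks than in quiescent cells and lower at 4 than at 2 weeks. H2-DMb1, H2-Ob, H2-Eb2 and Marchf1 stayed at or under the guide on all arrays.

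Of these 15, H2-Ea changed most in culture. It encodes the α chain of I-E, which RefSeq lists as a transcribed pseudogene in C57BL/6J and which is functional in BALB/c mice. H2-Ea was at 4.76 and 5.29 in culture, 8.74 and 9.23 at 4 weeks, 9.11 and 9.28 at 2 weeks and 8.29 and 8.79 in quiescent cells. The cultured arrays were far under the other 6. The log2 fold change was -3.97 ± 0.25 against 4 weeks (15.6-fold lower, adjusted p = 1.56e-05), -4.17 ± 0.25 against 2 weeks (adjusted p = 1.3e-05) and -3.52 ± 0.25 against quiescent cells (11.5-fold lower, adjusted p = 1.86e-05). Each call held with any 1 array left out. The CCl4 groups differed from quiescent cells by 0.45 (4 weeks, adjusted p = 0.38) and 0.65 (2 weeks, adjusted p = 0.216). The I-E pair had a measured α chain difference of -3.52 and a β chain (H2-Eb1) difference of -0.46 between culture and quiescent cells. Whether the probes match the BALB/c alleles of these polymorphic genes equally well was not examined here.

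H2-DMb2, a β chain of H2-DM, was at 3.53 and 3.5 in culture, 4.98 and 5.85 at 4 weeks, 5.98 and 5.02 at 2 weeks and 3.69 and 4.44 in quiescent cells. Only the 4 CCl4 arrays were above the guide. Culture was lower than 4 weeks, at -1.90 ± 0.38 (adjusted p = 0.00866) and lower than 2 weeks, at -1.99 ± 0.38 (adjusted p = 0.00668). Cultured cells were under the guide, and with culture set at the guide the group mean of H2-DMb2 was 1.65-fold higher at 4 weeks and 1.75-fold higher at 2 weeks. The call against 4 weeks was lost without cultured array 2 (0.0529) or 4-week array 2 (0.0737), and that against 2 weeks without 2-week array 1 (0.0509). Quiescent arrays were under the guide too, and CCl4 over quiescent cells gave measured log2 differences of 1.36 at 4 weeks (adjusted p = 0.0634) and 1.44 at 2 weeks (adjusted p = 0.0725).

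The endosomal enzymes did not move as a block. Ctss, cathepsin S, which trims the invariant chain, was at 8.57 and 8.66 in culture, 8.61 and 8.76 at 4 weeks, 9.85 and 9.97 at 2 weeks and 9.02 and 9.18 in quiescent cells. The 2-week arrays stood above the other 6. Culture was lower than 2 weeks, at -1.29 ± 0.14 (adjusted p = 0.000328), a call that held with any 1 array left out. Ctss at 2 weeks was higher than in quiescent cells by 0.81 ± 0.14 (adjusted p = 0.0144), which was lost without quiescent array 1 (0.0607) or either 2-week array (0.0734 and 0.077). It was lower at 4 than at 2 weeks, with a change of -1.22 ± 0.14 (adjusted p = 0.0321), lost without either cultured array (0.0708), 2-week array 1 (0.0883) or 2 (0.307) or 4-week array 1 (0.339) or 2 (0.227). Ifi30, the lysosomal thiol reductase GILT, was at 10.39 and 10.56 in culture, 9.07 and 8.72 at 4 weeks, 9.34 and 9.32 at 2 weeks and 8.65 and 8.96 in quiescent cells. Both cultured arrays were highest, and culture was higher than quiescent cells by 1.67 ± 0.17 (3.18-fold, adjusted p = 0.00017). Lgmn, the endopeptidase legumain, was at 9.13 and 9.15 in culture, against 10.60 and 10.36 at 4 weeks, 10.44 and 10.17 at 2 weeks and 10.06 and 9.79 in quiescent cells. Lgmn in culture was lower, with a change of -1.35 ± 0.17 against 4 weeks (adjusted p = 0.00068), -1.17 ± 0.17 against 2 weeks (0.00147) and -0.79 ± 0.17 against quiescent cells (0.00822). The Ifi30 and Lgmn calls held with any 1 array left out.

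**Figure D4:**
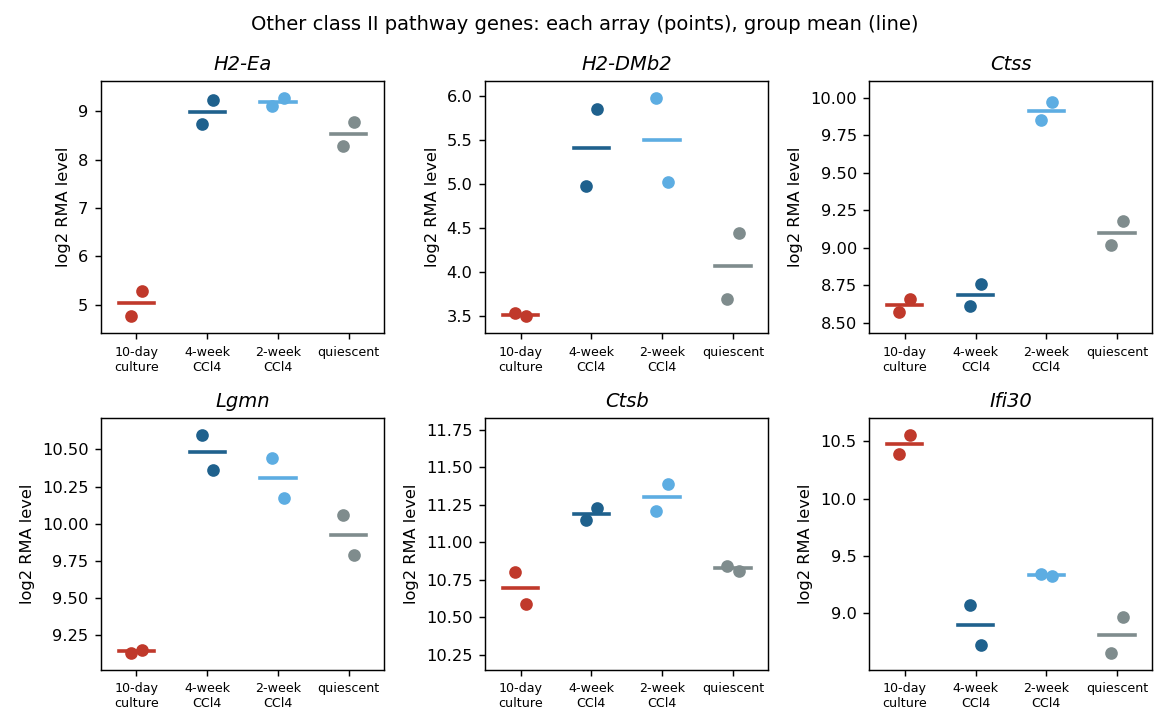
Log2 RMA level on each array (points) with the group mean (line) for 6 other class II pathway genes, 2 arrays per group. H2-Ea in culture is at 4.76 and 5.29 while the other 6 arrays are at 8.29 or above, and Ifi30 is highest in culture.

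All 16 listed regulators of class II genes were measured. In culture 1 was higher and 6 lower than in quiescent cells, 2 higher and 7 lower than at 4 weeks and 2 higher and 5 lower than at 2 weeks. In the same order, 12.9% of all genes were higher and 10.3% lower, then 10.2% and 7.05%, then 10.7% and 7.74%. The lower count against 4 weeks was 1 without either cultured array or 4-week array 1 and 4 without either 2-week array. It was also 1 with the arrays centred on their medians. Against 2 weeks it was 1 without 2-week array 2 and 2 without either cultured array. Among the RFX subunits, which bind the X box, none was called in culture against quiescent cells: Rfx5 differed by -0.40 (adjusted p = 0.223) and Rfxap by 0.38 (adjusted p = 0.134). Rfxank was higher in culture than at 4 weeks by 0.91 ± 0.16 (adjusted p = 0.0041) and than at 2 weeks by 0.92 ± 0.16 (adjusted p = 0.00351). The histone enzymes gave the smallest p-values. Ezh2, which writes the repressive H3K27 methyl mark, was at 8.24 and 8.38 in culture against 6.34 and 6.24 in quiescent cells, a change of 2.02 ± 0.19 (adjusted p = 0.000105). Kdm6b, which removes that mark, was at 6.95 and 7.01 in culture against 8.74 and 8.66 in quiescent cells, a change of -1.72 ± 0.16 (adjusted p = 7.91e-05). The acetyltransferases Kat2b (-1.04 ± 0.17, adjusted p = 0.00209) and Ep300 (-0.80 ± 0.13, adjusted p = 0.0022) were also lower. These 4 calls held with any 1 array left out.

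Of 13 measured members of the interferon-γ axis, out of 15 listed, 8 were lower in culture than in quiescent cells, 5 were not called and none was higher, with a median of -1. Over all genes 10.3% were lower in that comparison, with a median of 0.01. The calls of Irf2 and Socs1 were lost without quiescent array 1 or cultured array 1, and that of Gbp3 without quiescent array 2 or cultured array 2. With only the 4 arrays compared, Irf2 (adjusted p = 0.0923, limma) and Socs1 (0.0718) were not called. Against 4 weeks 5 were lower, and against 2 weeks 6 were lower, beside 7.05% and 7.74% of all genes. Those counts fell to 3 against 4 weeks without either cultured array and to 2 without 4-week array 1, and to 3 against 2 weeks without 2-week array 2. Irf1, a transcription factor that interferon-γ induces and that acts on a Ciita promoter, was at 5.89 and 6.16 in culture, 7.63 and 7.79 at 4 weeks, 8.31 and 8.96 at 2 weeks and 9.19 and 9.21 in quiescent cells. The groups did not overlap and followed the order quiescent, 2 weeks, 4 weeks, culture, which is not that of the class II chains. Irf1 in culture was lower than in quiescent cells, at -3.18 ± 0.21 (9.04-fold, adjusted p = 1.5e-05), and at 4 weeks it was lower than in quiescent cells, at -1.49 ± 0.21 (adjusted p = 0.00376). The chemokine Cxcl9 (-3.04 ± 0.31, adjusted p = 0.000143), the factor Irf8 (-2.66 ± 0.41, adjusted p = 0.0015) and the kinase Jak1 (-1.15 ± 0.18, adjusted p = 0.00169) were also lower in culture than in quiescent cells. The receptor chain Ifngr1 differed by -0.39 (adjusted p = 0.0637), and Ifng itself stayed at or under the guide on all arrays. At 2 weeks none of the 13 was called against quiescent cells.

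The class I pathway presents cytosolic peptides to CD8+ T cells. Of 15 measured members of 20 listed, 10 were lower in culture than in quiescent cells, 5 were not called and none was higher, with a median of -1.08, beside 10.3% of all genes lower. H2-T23, a non-classical class I chain, was at 4.85 and 4.98 in culture against 8.06 and 7.98 in quiescent cells (-3.11 ± 0.15, adjusted p = 2.37e-06). The immunoproteasome subunits Psmb9 (-2.19 ± 0.15, adjusted p = 1.5e-05) and Psmb10 (-1.52 ± 0.14, adjusted p = 9.34e-05) and the peptide-trimming Erap1 (-1.88 ± 0.16, adjusted p = 6.24e-05) were lower too. These 4 calls held with any 1 array left out. Nlrc5, the class I counterpart of Ciita, differed by -0.57 ± 0.18 (adjusted p = 0.0546) and was above the guide on 1 of 8 arrays. Psmb9 was the 1 member called at 4 weeks against quiescent cells (-1.01 ± 0.15, adjusted p = 0.00403), beside 4.67% of all genes lower. At 2 weeks 3 members were lower than in quiescent cells, beside 2.43% of all genes: H2-T23 (-0.86 ± 0.15, adjusted p = 0.0138), Psmb9 (-0.65 ± 0.15, adjusted p = 0.0419) and Psmb10 (-0.61 ± 0.14, adjusted p = 0.0481). That count was 0 without quiescent array 1 or 2-week array 1, 1 without any other array and 0 with only the 4 arrays compared.

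Cd86 stands among 16 other ligands that stimulate or restrain T cells, all measured. In culture 3 were higher and 4 lower than in quiescent cells, with a median of -0.18, beside 12.9% and 10.3% of all genes. The 3 higher ones were Tnfsf18, Cd80 and Cd40. The Cd40 call was lost without either quiescent array, cultured array 2 or either 4-week array. It was also lost with only the 4 arrays compared (adjusted p = 0.0856, limma). Tnfsf18, the ligand of GITR, was at 10.00 and 10.07 in culture, 3.33 and 3.11 at 4 weeks, 3.44 and 3.22 at 2 weeks and 3.23 and 3.48 in quiescent cells. Its culture arrays alone were above the guide, and the measured log2 difference from quiescent cells was 6.68 ± 0.16 (adjusted p = 1.01e-07). With quiescent cells set at the guide, the group mean of Tnfsf18 was 40.5-fold higher in culture. Cd80, which binds the same receptors as Cd86, was at 4.84 and 4.80 in culture, 3.78 and 4.36 at 4 weeks, 4.57 and 4.26 at 2 weeks and 3.99 and 3.87 in quiescent cells. Cd80 in culture was thus highest and just above the guide while Cd86 was lowest and under it: Cd80 was higher in culture than in quiescent cells by 0.89 ± 0.20 (adjusted p = 0.0119), a call lost without cultured array 1 (0.0618) or 2 (0.0573), with the quiescent level under the guide. Lower in culture than in quiescent cells were Tnfsf9, the 4-1BB ligand (-2.80 ± 0.19, adjusted p = 1.75e-05), and the adhesion molecules Icam1 (-1.75 ± 0.22, adjusted p = 0.00057) and Vcam1 (-1.17 ± 0.16, adjusted p = 0.000715). At 2 weeks Cd83 was higher than in quiescent cells by 0.99 ± 0.18 (adjusted p = 0.0163), a call lost without quiescent array 1 (0.0644) or 2-week array 2 (0.087).

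Markers of cells that classically carry class II molecules moved with some of these values. The mean of 12 pan-leukocyte genes was 7.16 and 7.13 in culture, 7.03 and 7.30 at 4 weeks, 7.83 and 8.04 at 2 weeks and 7.39 and 7.47 in quiescent cells. The mean of 17 macrophage and Kupffer cell markers was 6.17 and 6.39 in culture, 6.25 and 6.25 at 4 weeks, 7.38 and 7.68 at 2 weeks and 7.61 and 7.72 in quiescent cells. The pan-leukocyte mean was highest at 2 weeks, as the class II chains were. The macrophage mean was as high in quiescent cells as at 2 weeks, and at 4 weeks it was as low as in culture. Between the CCl4 times 4 of the 17 (Vsig4, C1qb, Csf1r and Cd68) were lower at 4 than at 2 weeks and none higher, beside 0.0586% of all genes lower. At 2 weeks 2 (Cd68 and Lyz2) were higher and 2 (Timd4 and Cd163) lower than in quiescent cells, beside 2.34% and 2.43% of all genes. Each of these calls was lost without at least 1 of the arrays. In culture 13 of the 17 macrophage markers were lower and 1 (Lyz2) higher than in quiescent cells, beside 10.3% and 12.9% of all genes. Against 4 weeks 3 (Vsig4, Cd68 and Lyz2) were higher in culture and none lower, beside 10.2% and 7.05% of all genes. Culture had 14 lower and none higher than at 2 weeks, beside 7.74% of all genes lower. At 4 weeks 11 were lower and none higher than in quiescent cells, beside 4.67% of all genes lower. Against 2 weeks the count in culture was 8 without cultured array 1 and 6 without 2-week array 2, and at 4 weeks it was 7 without 4-week array 1. Of the 12 pan-leukocyte genes, 1 was higher (Arhgdib, 0.75 ± 0.20, adjusted p = 0.0259) and 2 were lower (Ptprc and Rac2) in culture than in quiescent cells, and the Arhgdib and Rac2 calls were lost without quiescent array 1 (0.118 and 0.0966) or cultured array 1 (0.0801 and 0.0658) or 2 (0.13 and 0.12). Ptprc, the pan-leukocyte CD45, was at 5.24 and 5.33 in culture, 6.82 and 6.67 at 4 weeks, 7.12 and 7.60 at 2 weeks and 6.93 and 6.34 in quiescent cells, and was lower in culture than in quiescent cells, at -1.35 ± 0.22 (adjusted p = 0.00239). In that comparison 12.9% of all genes were higher and 10.3% lower. Against 2 weeks 1 of the 12 was higher and 7 lower in culture (median -0.75), where 10.7% and 7.74% of all genes were. At 2 weeks 2 of the 12 were higher than in quiescent cells and none lower (median 0.59), where 2.34% of all genes were higher. Several of these calls were lost with 1 array left out.

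The mean of 14 dendritic cell markers was 5.17 and 5.23 in culture, 5.28 and 5.42 at 4 weeks, 5.41 and 5.52 at 2 weeks and 5.61 and 5.46 in quiescent cells. This mean covers opposite changes: in culture 5 were lower and 2 higher than in quiescent cells, beside 10.3% and 12.9% of all genes. The calls of Cd209a, which was higher, and of Batf3 and Kmo, which were lower, were lost without either cultured array. Cd209a was also not called with the mean of its probe sets (adjusted p = 0.112, limma). Dpp4 was at 4.29 and 4.27 in culture against 9.12 and 7.85 in quiescent cells, and Cd24a at 9.94 and 10.20 against 6.65 and 6.66. Flt3, Xcr1, Clec10a and Itgae were at or under the guide on all arrays, and Itgax was at 4.49 and 4.37 in culture, 4.76 and 4.43 at 4 weeks, 4.98 and 4.82 at 2 weeks and 4.49 and 4.08 in quiescent cells. The mean of 13 B cell markers ran from 4.32 to 4.63 over the 8 arrays, and 6 of the 13, Cd79a and Ms4a1 among them, were at or under the guide on all arrays. The mean of 14 sinusoidal endothelial markers was 5.39 and 5.10 in culture, 6.70 and 7.09 at 4 weeks, 7.42 and 7.76 at 2 weeks and 9.68 and 8.55 in quiescent cells. The mean of 10 monocyte and neutrophil markers was 4.92 and 4.99 in culture, 6.04 and 6.26 at 4 weeks, 6.21 and 6.78 at 2 weeks and 6.91 and 5.88 in quiescent cells. Both means were lowest in culture, while that of 12 T and NK cell markers stayed between 4.41 and 4.82. Of the 10 monocyte and neutrophil markers, Ccr2 alone was called at 2 weeks against quiescent cells, beside 2.34% of all genes higher. It was higher, a call lost without 2-week array 2. Ccr2 was at 5.23 and 4.85 in culture, 6.11 and 6.40 at 4 weeks, 6.60 and 6.96 at 2 weeks and 5.58 and 5.35 in quiescent cells. As in the class II chains, its cultured arrays lay below and its 2-week arrays above all others. The part of any of these cells in the class II, Ctss or Cd86 differences was not tested.

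**Figure D5:**
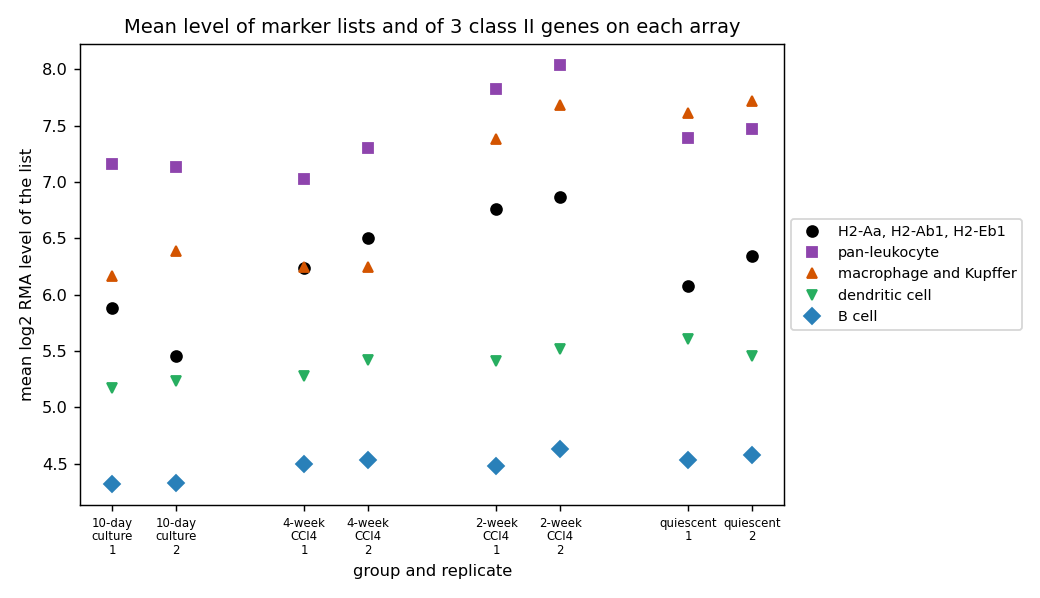
Mean log2 RMA level on each array of H2-Aa, H2-Ab1 and H2-Eb1 and of 4 marker lists, with each point 1 array. The class II mean is 5.88 and 5.46 in culture and 6.76 and 6.87 at 2 weeks, and the macrophage mean is near 6.25 at 4 weeks.

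Among 1525 other genes with a range of at least 2 log2 units, those most like the mean of the 3 class II chains over the 8 arrays were Fmod (r = 0.951), Sele (0.945), Mmp23 (0.94), Eln (0.938), Ccl7 (0.935), Ccdc3 (0.933), Mgp (0.932) and Mfap2 (0.93). Fmod encodes the matrix proteoglycan fibromodulin, Eln elastin and Ccl7 a monocyte-attracting chemokine. Fmod was at 6.26 and 5.20 in culture, 8.27 and 8.08 at 4 weeks, 9.14 and 10.06 at 2 weeks and 6.74 and 7.03 in quiescent cells, the same order of groups as the chains. Some leukocyte markers had group means in that order too, among them Ptprc, Cd52 and Coro1a, while others, such as Tyrobp and Fcer1g, did not. In Ptprc and Cd52 the cultured arrays also lay below all others and the 2-week arrays above all others, as in the chains. For Ptprc the means were 7.36 at 2 weeks, 6.74 at 4 weeks, 6.64 in quiescent cells and 5.29 in culture. Cd86 was most like the C-type lectins Clec4a3 (0.942) and Clec4a1 (0.923), which myeloid cells are known to express, then Gpr65 (0.91), Gpc6 (0.909) and Fign (0.907). H2-DMa was most like AF357355 (0.962), Fabp5 (0.959), Noct (0.954), Mcm6 (0.94) and Tnfrsf23 (0.94). For Ciita the highest was Clec7a, at 0.664. These correlations describe 8 arrays that share 4 groups and carry no test.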

How the data were processed

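RNA from 8 samples of primary mouse stellate cells was hybridised to Affymetrix arrays after whole-transcriptome preamplification, per the labels' protocols. The authors deposited log2 expression values. Per the submitters' processing notes, RMA and Affymetrix Expression Console were used, and no version of either is given in the sources used here. RMA normalizes arrays together, which hides a shift common to most genes, and the values were used as deposited. Precision is limited by having 2 arrays per group.

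Of 41345 probe sets, 23521 carry 1 gene symbol, 1814 several and 16010 none, and only the first kind was named. Where a gene had several of these (1082 genes), the probe set with the highest mean over the 8 arrays was used, which left 22180 genes. Gene IDs were looked up in a RefSeq table of GRCm38.p6, which lacked 186 of them.

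Differences were tested two-sided with limma 3.58.1 in R 4.3.3 (lmFit and eBayes, neither trend nor robust) in 1 fit of 4 groups with 4 residual degrees of freedom, and the code was tested on simulated data. P-values were adjusted by Benjamini-Hochberg over all genes of each of 6 comparisons, and an adjusted p under 0.05 was a call. The alternatives were leaving out each array, only the 4 arrays compared, centring on array medians, trend and robust options, a filter on dim genes, the mean of a gene's probe sets and the replicate number as a block. Genes were named by a rule: all members, up to 4 members of a described list with the smallest p, set defining genes, and the genes with the highest Pearson correlation to the members. That rule included Cd74 in the class II mean, which was taken over 3 genes because Cd74 has no probe set of its own. The members, the 14 lists and the rule were chosen with earlier results of these data known.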

Additional observations from a re-analysis of the deposited data

Results flagged for a closer look

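Culture on plastic and CCl4 in vivo were both set against quiescent cells, and for 5 genes these differences themselves differed past the limma threshold. Culture minus 4-week CCl4 was -0.71 for H2-Aa, -0.77 for H2-Ab1 and 0.67 for H2-DMa on the log2 scale. Culture minus 2-week CCl4 was -1.08 for H2-Aa, -1.29 for H2-Ab1, -1.06 for H2-Eb1 and -1.19 for Cd86. The quiescent arrays cancel in these differences, so each is the direct difference of culture and CCl4 given in the results. With 2 arrays per group, single arrays that stand apart from their group were not looked for.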

How the results depend on the processing

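With any 1 array left out, the number of the 6 genes called ranged from 1 to 3 for culture against quiescent cells, from 0 to 3 for culture against 4 weeks, from 3 to 4 for culture against 2 weeks and from 0 to 1 for 2 weeks against quiescent cells, and was 0 throughout for 4 weeks against quiescent cells and against 2 weeks. Over all genes the counts ranged from 3505 to 4962, 2015 to 4295, 2427 to 4608, 260 to 1430, 652 to 2113 and 0 to 85 in the same order. With only the 4 arrays compared, 372 genes were called at 2 weeks and 1205 at 4 weeks against quiescent cells (1058 and 1932 with all arrays) and 82 at 4 against 2 weeks (19 with all arrays). With only the 12731 genes above the median probe set, fewer genes are tested, and 1 of the 6 genes was called at 2 weeks against quiescent cells, H2-Ab1 at an adjusted p of 0.0484. Same-numbered arrays of different groups did not deviate together (correlations from -0.042 to 0.074), so the numbers were not taken as pairs. With the replicate number as a block, 9 genes were called at 4 against 2 weeks, and H2-Aa in culture against quiescent cells had an adjusted p of 0.0504. That H2-Aa difference was also not called with trend and robust options (0.0539) or with only the 4 arrays compared (0.0889). Centring the arrays gave H2-Aa in culture against 4 weeks a change of -0.63 (0.0505) and Ciita at 4 weeks against quiescent cells one of -0.02. With only the 4 arrays compared, Cd86 in culture against 4 weeks was called (0.025). Of the 16 class II regulators, 1 was lower in culture than at 4 weeks with centred arrays and 3 with the replicate block, against 7. Of the class I members lower at 2 weeks than in quiescent cells, 1 was called with the replicate block and 0 with only the 4 arrays compared, against 3. With only those 4 arrays, 1 of the other class II pathway genes was higher in culture than in quiescent cells, against 2, and no pan-leukocyte gene was, against 1. With only the 4 arrays compared, with centring and with trend and robust options, 2 of the pathway genes were higher in culture than at 4 weeks, against 1.

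Differences that no setting called changed sign with 1 array left out. Against quiescent cells at 4 weeks the range was -0.02 to 0.17 for H2-Aa, -0.04 to 0.37 for H2-Eb1, -0.15 to 0.06 for H2-DMa and -0.15 to 0.20 for Ciita, and at 2 weeks it was -0.09 to 0.39 for Cd86. For Ciita it was also -0.32 to 0.03 at 4 against 2 weeks, -0.18 to 0.01 in culture against 2 weeks and -0.12 to 0.23 in culture against 4 weeks. The cause was not tested. The mean of a gene's probe sets left the values of the 6 genes as they were, since each has 1.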
